A study of Arabidopsis thaliana with 18 samples.

Results

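Seedlings of Arabidopsis thaliana that were kept cool and then moved to warmth raised a small set of transcripts within 2 h and had let them fall again by 24 h. The set described here holds the 37 probe sets, of 22746 on the array without the Affymetrix controls, that showed this brief rise in the wild type Col-0. A probe set is a group of short probes that reads 1 transcript or a few near-identical ones. Levels are log2(intensity + 16), quantile normalized over all 18 arrays, and are called log2 levels below. The members were chosen from these Col-0 values. The 2 h mean had to lie at least 1.5 above the 12 °C mean and at least 1 above the 24 h mean, and the 2 h mean had to reach 7. Both 2 h arrays also had to lie above both 12 °C arrays and both 24 h arrays. These conditions were met by 41 probe sets. Of 5 heat shock protein loci that were to be left out, 4 had met the conditions, which leaves the 37. The fifth, AT2G19310, missed the limit for the return with a fall of 0.98.

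The study compared arp6-10 mutant and Col-0 seedlings at 3 points, each on whole seedlings labelled as 8 days old. The points were 12 °C with continuous light before the shift, and 2 h and 24 h at 27 °C. There were 4 arrays of arp6-10 and 2 arrays of Col-0 at each point, 18 arrays in all. All groups share stratification at 4 °C for 48 h and germination at 20 °C. They also share the transfer to 12 °C at an age of 5 days and the cool period of 3 days. The plates held no sugar. ARP6 belongs to SWR1, a chromatin remodelling complex that exchanges the usual histone H2A for the variant H2A.Z. The series asks how nucleosomes with H2A.Z take part in sensing temperature. The labels name the allele arp6-10 and do not describe its lesion. No probe set is paired with ARP6 alone in the annotation used here, so its level was not analysed here. Nothing in the labels says that replicate arrays stand for separately grown seedlings, so a p-value here reflects the variation among the arrays of a group, which could be technical. In whole seedlings a lower level can come from fewer cells of a type or from less RNA per cell, and these cannot be told apart.

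In warmth, proteins lose their fold more readily, and plants answer a warm shift with heat shock proteins. These chaperones, among them small heat shock proteins and the co-chaperones of HSP90, hold or refold other proteins. Many of their genes are switched on quickly by heat shock factors and switched off again as the cell adapts. Plants also have a core set of genes that rises when oxygen runs low in many cell types, several of them of unknown function. Breakdown of leucine and the other branched-chain amino acids in mitochondria feeds electrons to respiration and is known to rise when sugar is short.

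In arp6-10, 2 arrays stood apart from their groups and are named here before any result. Each array was placed on the axis between the arp6-10 means at 12 °C (0) and at 24 h (1), over all 15922 tested probe sets. For every array, the 2 arrays that stand apart were left out of both means, as was the array being placed. The array labelled arp6-10 12 °C replicate 3 lay at 0.96, while the other 12 °C arrays of arp6-10 lay between 0.08 and 0.14. The array labelled arp6-10 24 h replicate 2 lay at -0.04, while the other 24 h arrays lay between 0.88 and 0.93. Counts, medians and changes in arp6-10 are therefore given with all 12 arrays and, for the members the results turn on, also without these 2 arrays. The 2 h arrays are the same in both. The 2 arrays were set aside with results known, and the values without them depend on that choice. The axis was itself drawn without them, so it is no independent check of the choice. The ratio of the 3' to the 5' GAPDH control probe set, a sign of RNA quality, was 1.47 to 3.09 on the arp6-10 2 h arrays and 1.47 to 6.78 over all 18 arrays. The highest ratio, 6.78, was on Col-0 2 h replicate 2, which took part in choosing the members. On arp6-10 12 °C replicate 3 the ratio was 5.51, while the other arrays of its group had 1.47 to 4.28. On arp6-10 24 h replicate 2 it was 1.51, while the other arrays of its group had 1.94 to 6.48. All 4 tested leaf and photosynthesis markers had mean log2 levels of 12.7 or more and all 7 tested root markers had 7.31 or more.

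**Figure D1:**
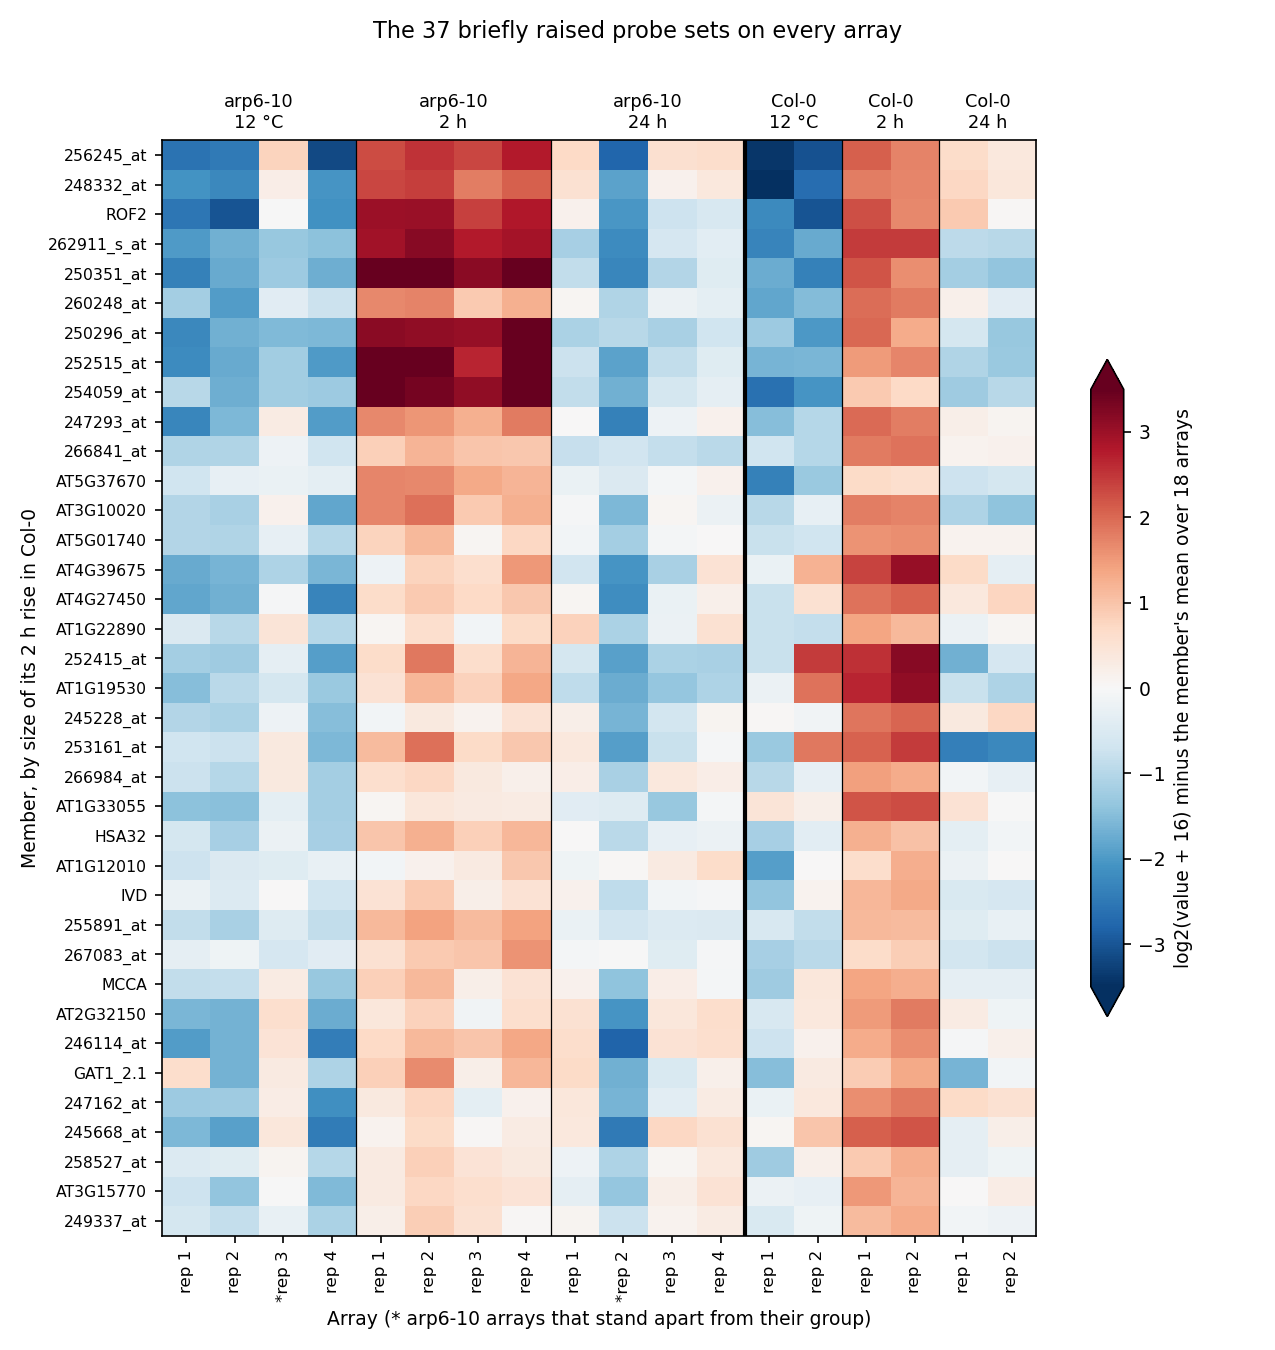
Heat map of the 37 members (rows, ordered by the size of the Col-0 difference at 2 h) on the 18 arrays (columns, arp6-10 left of the thick line and Col-0 right of it). Colour is the log2 level minus the member's mean over the 18 arrays. The 2 h columns are mostly red in both genotypes, and the starred arp6-10 columns (12 °C replicate 3 and 24 h replicate 2) differ in colour from their neighbours.

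The members' mean level gave the time course in one number per array. In arp6-10 it lay at 6.08 to 7.34 at 12 °C, at 8.53 to 9.05 after 2 h and at 6.05 to 7.51 after 24 h. In Col-0 it was 6.35 and 7.07 at 12 °C, 9.17 and 9.22 after 2 h and 7.23 and 7.22 after 24 h. The 2 h arrays lay above all others in both genotypes. The 7.34 and the 6.05 in arp6-10 belonged to the 2 arrays that stand apart, and without them the ranges were 6.08 to 6.29 at 12 °C and 7.22 to 7.51 at 24 h. The array 12 °C replicate 3 was the highest of its group for 33 of the 37 members, and 24 h replicate 2 was the lowest of its group for 32. The rule fixes the Col-0 pattern, so the Col-0 values are a description. At 24 h, 29 of the 37 members were still above their 12 °C level in Col-0, with a median difference of 0.43 and a range from -2.59 to 3.72 over the 37.

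The members just at the limits show how sharp the set is. Of the probe sets nearest the limit of 1.5 for the rise, 249337_at (1.53), AT3G15770 (1.59) and 258527_at (1.63) were inside, and 267357_at (1.48), 245757_at (1.48) and 247954_at (1.47) were outside. Nearest the limit of 1 for the return, AT1G12010 (1.04), 247162_at (1.12) and 248332_at (1.18) were inside, and 266720_s_at (0.93), 245325_at (0.90) and AT1G80180 (0.90) were outside. Nearest the limit of 7 for the level, 266841_at (7.07), GAT1_2.1 (7.07) and AT1G12010 (7.44) were inside, and 264375_at (6.84), AT5G07330 (6.19) and AT2G23110 (6.09) were outside. One Col-0 array weighs on the set. Col-0 12 °C replicate 2 lay above replicate 1 for 28 of the 37 members, and the conditions would be met by 56 members without it and by 23 without replicate 1. All 37 are among the 56, and 22 of them are among the 23.

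Of the 37 members, 16 are paired with 1 gene and are named, 1 is paired with several genes and 20 are not listed in the platform annotation used here. The named members comprise 3 chaperone genes, 5 genes of the core low-oxygen response, 3 genes of amino acid metabolism and 5 others. The probe set paired with several genes, 262911_s_at, is paired with AT1G59860 and AT1G07400. Both are on the list of heat shock proteins and chaperones given below, whose counts leave out this probe set.

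The arp6-10 arrays entered the rule only through the quantile normalization shared by all 18 arrays, so changes within arp6-10 were tested. The members were chosen with earlier results of these data known. One model of the 12 arp6-10 arrays was fitted over all tested probe sets (limma, two-sided, Benjamini-Hochberg adjusted p under 0.05). At 2 h against 12 °C, 22 of the 36 tested members rose and 0 fell, while 1.08% of all tested probe sets rose and 1.06% fell. The member 266841_at was too dim over the 18 arrays to be tested. The median change of the 36 was 1.86, with a range from 0.81 to 5.41, and the median over all tested probe sets was 0.00. All 36 changes were above 0, and 35 had an unadjusted p under 0.05. Of all 15922 tested probe sets, 7989 changes were above 0, and 2987 changes in either direction had an unadjusted p under 0.05. With the 2 arrays that stand apart left out, all 36 rose, with a median change of 2.18. In that fit 8.65% of all tested probe sets rose and 9.08% fell. Single arrays moved the count too, since 14 members rose without arp6-10 2 h replicate 2, and 33 rose without 12 °C replicate 3 alone or 24 h replicate 2 alone. The background moved with them. Over all tested probe sets, 85, 1055 and 943 were called in either direction in these fits, in the same order, against 341 with all arrays.

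The 24 h arrays were set against the same 2 h arrays. At 24 h against 2 h in arp6-10, 13 of the 36 tested members fell and 0 rose (limma adjusted p under 0.05), while 0.484% of all tested probe sets fell and 0.477% rose. The median change was -1.38, all 36 changes were below 0, and they ran from -4.79 to -0.13. Of all 15922 tested probe sets, 7960 changes were below 0. With the 2 arrays left out, 21 fell, and the median was -1.14 with 33 changes below 0. In that fit 8.05% of all tested probe sets fell and 7.14% rose. At 24 h against 12 °C, limma called 0 of 36 members and 0 of all tested probe sets with all arrays. At an unadjusted p under 0.05 there were 7 members and 1381 probe sets in all. Once the 2 arrays were left out, 28 of the 36 members were higher at 24 h than at 12 °C, with a median of 1.09 and a range from 0.11 to 3.37. In that fit 14.2% of all tested probe sets were higher and 15.4% lower.

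Overlap between arrays gives the same comparisons without a model. Every arp6-10 2 h array lay above every arp6-10 12 °C array for 30 of the 37 members, while 5.74% of all tested probe sets met this. The count was 36 without the 2 arrays, with 13.4% of all tested probe sets, and the exception was GAT1_2.1. Every arp6-10 2 h array lay above every 24 h array for 24 of the 37 members, with 5.42% of all tested probe sets. The count was again 24 without the 2 arrays, with 14.6%. No member had all its arp6-10 2 h arrays below its 12 °C arrays.

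Probe sets that rose in Col-0 but missed a 24 h condition give a comparison. There were 90 that met the same conditions at 2 h, with the same loci left out, without meeting all of those at 24 h. This set is mixed, since it also holds probe sets that came part of the way down. The chaperone gene Hop3, with a Col-0 change of -0.73 from 2 h to 24 h, is among them. In arp6-10 at 2 h against 12 °C, 7 of these 90 rose, with a median change of 0.60. Of the same 90, 57 rose and 1 fell without the 2 arrays, with a median of 0.84. At 24 h against 2 h, 2 of the 90 fell, with a median of -0.19, and without the 2 arrays 16 rose and 15 fell, with a median of 0.06. The medians of the 36 briefly raised members in the same contrasts were 1.86 and -1.38 with all arrays. The difference between the sets was not tested, and the conditions for both used Col-0 levels alone.

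**Figure D2:**
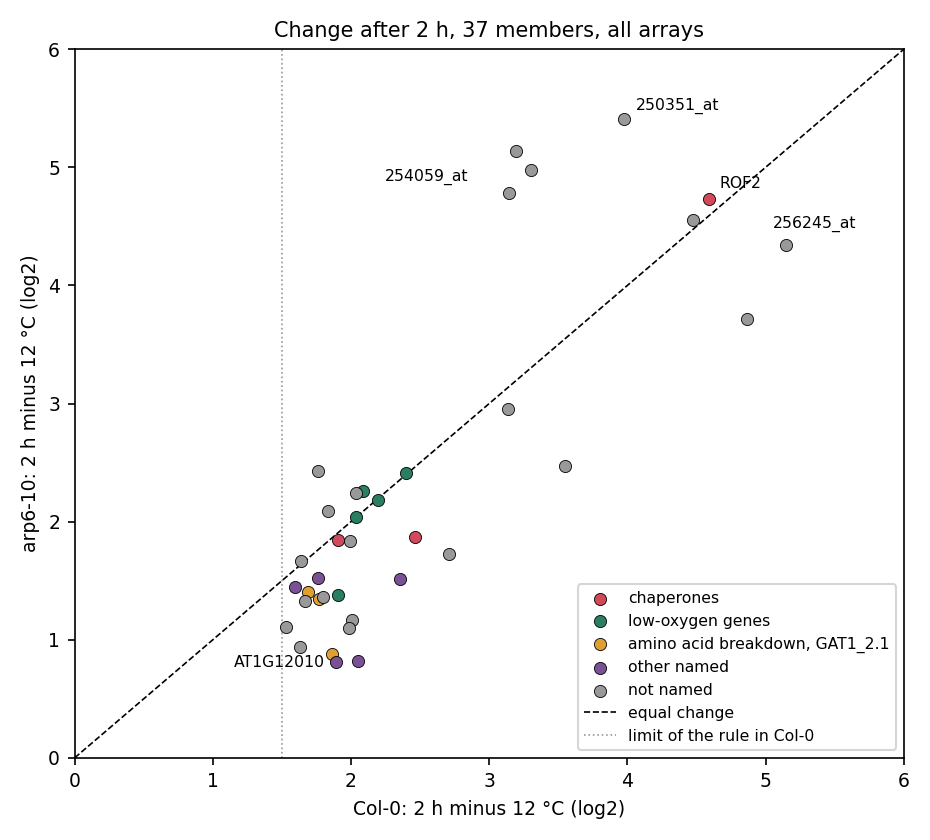
Change at 2 h against 12 °C in arp6-10 (vertical axis, log2) against that in Col-0 (horizontal axis, log2) for the 37 members, all arrays, coloured by role. The dashed line marks equal change and the dotted line the limit of 1.5 in Col-0. Members with large Col-0 changes also had large changes in arp6-10, and 4 unnamed probe sets near the top lie well above the dashed line.

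Across the 37 members, the changes at 2 h in arp6-10 and in Col-0 had a Pearson r of 0.82 and a Spearman rho of 0.74. The points share the same arrays and the horizontal values were selected, so this describes the members and carries no test.

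The 3 chaperone genes rose and fell in arp6-10 with and without the 2 arrays. ROF2 (AT5G48570) encodes an FK506-binding peptidyl-prolyl isomerase that works as a co-chaperone of HSP90. Its arp6-10 log2 levels were 4.64, 4.16, 7.17 and 5.04 at 12 °C, 10.18, 10.21, 9.58 and 9.97 after 2 h, and 7.34, 5.13, 6.46 and 6.61 after 24 h. The Col-0 levels of ROF2 were 4.95 and 4.15 at 12 °C, 9.43 and 8.85 after 2 h, and 8.08 and 7.23 after 24 h. In arp6-10 no 2 h array overlapped an array of another point, which the rule fixes for Col-0. In both genotypes the 12 °C levels other than 7.17 were near the floor of the scale, which is 4. The arp6-10 rise was 4.73 ± 0.56 (SE), 26.5-fold on this scale (limma adjusted p = 0.00109), and 5.37 ± 0.24 without the 2 arrays (adjusted p = 1.51e-09). The fall by 24 h was -3.60 ± 0.56 (adjusted p = 0.00663), and -3.18 ± 0.24 without the 2 arrays (adjusted p = 1.49e-06). In Col-0 the difference at 2 h was 4.59. At 2 h every arp6-10 array lay above both Col-0 arrays, by 0.85 on the means, and at 24 h the arp6-10 mean minus the Col-0 mean was -1.27 with all arrays and -0.85 without the 2. Since pseudocount and floor compress dim values, these folds understate the change.

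AT5G37670 encodes a small heat shock protein of the peroxisome. In arp6-10 it had log2 levels of 6.69, 7.10, 7.14 and 7.05 at 12 °C, 9.10, 9.06, 8.72 and 8.58 after 2 h, and 7.15, 6.88, 7.31 and 7.54 after 24 h. Col-0 seedlings had 5.02 and 6.09 at 12 °C, 8.06 and 7.98 after 2 h, and 6.66 and 6.76 after 24 h. Every arp6-10 array lay above every Col-0 array at 12 °C, at 2 h and at 24 h. The rise in arp6-10 was 1.87 ± 0.18 (SE), 3.65-fold (limma adjusted p = 0.000106), and the fall by 24 h was -1.64 ± 0.18 (adjusted p = 0.000444). Neither of the 2 arrays that stand apart was far from its group in this gene, and without them the changes were 1.92 ± 0.17 (adjusted p = 2.52e-06) and -1.53 ± 0.17 (adjusted p = 4.61e-05). The Col-0 difference at 2 h was 2.46.

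HSA32 (AT4G21320) encodes a heat-induced protein needed to keep acquired thermotolerance over time. It had arp6-10 log2 levels of 5.997, 5.43, 6.40 and 5.45 at 12 °C, 7.59, 7.86, 7.45 and 7.77 after 2 h, and 6.63, 5.66, 6.32 and 6.39 after 24 h. Its Col-0 levels were 5.43 and 6.23 at 12 °C, 7.85 and 7.63 after 2 h, and 6.27 and 6.51 after 24 h. The 2 genotypes overlapped at all 3 points. The arp6-10 rise was 1.85 ± 0.24 (SE), 3.60-fold (limma adjusted p = 0.00194), and the fall was -1.41 ± 0.24 (adjusted p = 0.0134). They were 2.04 ± 0.17 (adjusted p = 1.68e-06) and -1.22 ± 0.17 (adjusted p = 0.000339) without the 2 arrays. The difference at 2 h in Col-0 was 1.91.

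**Figure D3:**
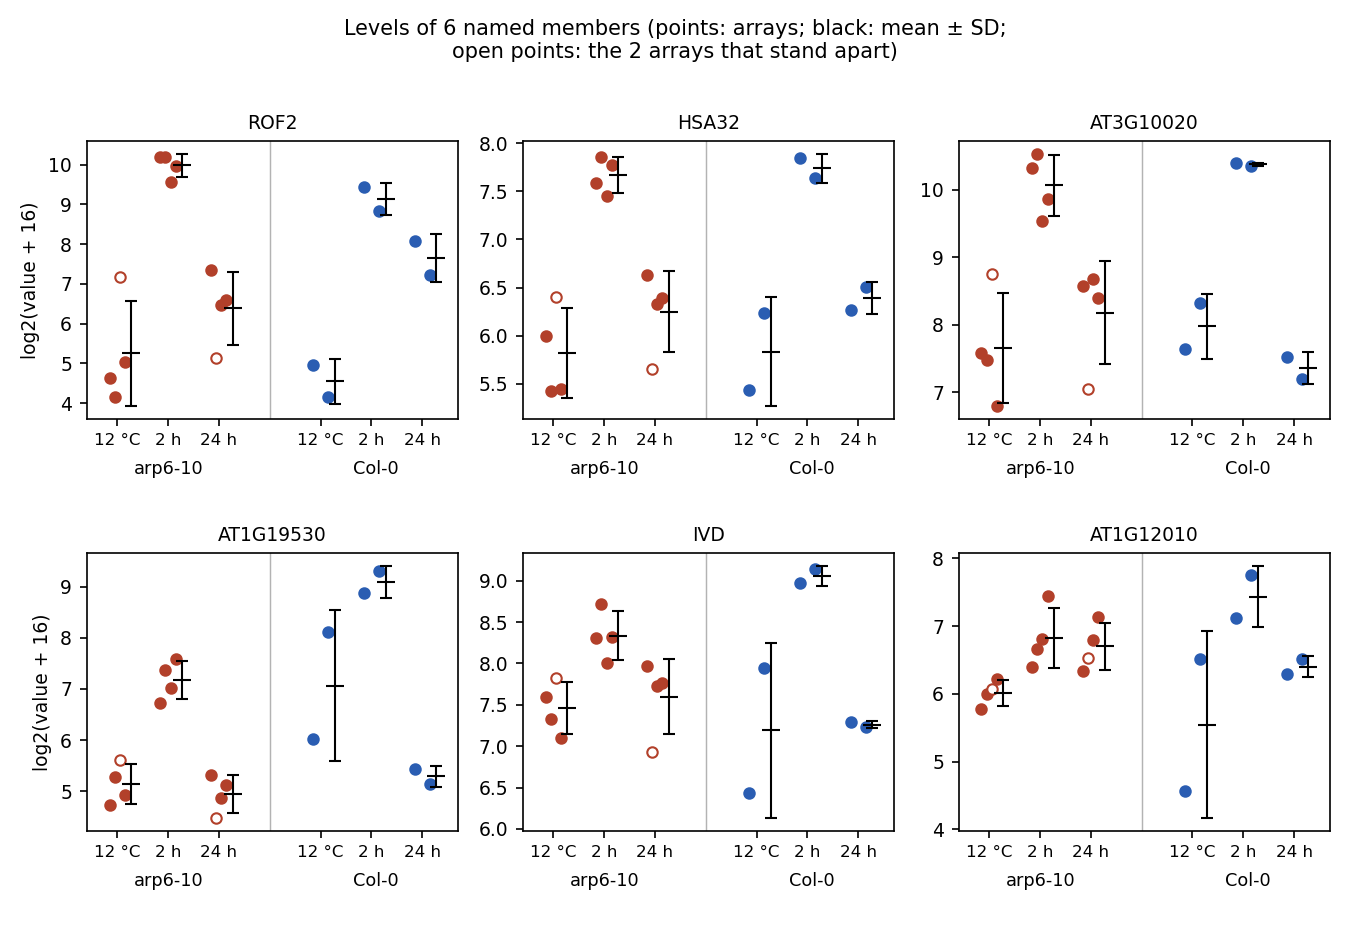
Log2 levels of 6 named members on every array (points), with the group mean ± SD in black, for arp6-10 (red, 4 arrays per point) left of Col-0 (blue, 2 arrays per point). Open points are the 2 arrays that stand apart. At 2 h the ROF2 arrays of arp6-10 lie above those of Col-0, the HSA32 arrays of both genotypes overlap, AT1G19530 stays lower in arp6-10 at 2 h, and AT1G12010 has arp6-10 levels at 24 h like those at 2 h.

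The 5 low-oxygen genes also rose in arp6-10, all of them with and without the 2 arrays, but 4 of them had lower means in arp6-10 than in Col-0 at all 3 points. The exception was AT3G10020, of unknown function. It had arp6-10 log2 levels of 7.58, 7.48, 8.76 and 6.80 at 12 °C, 10.32, 10.53, 9.54 and 9.87 after 2 h, and 8.58, 7.05, 8.68 and 8.40 after 24 h. In Col-0 AT3G10020 had 7.63 and 8.32 at 12 °C, 10.39 and 10.36 after 2 h, and 7.53 and 7.19 after 24 h. The genotypes overlapped at 12 °C and at 2 h. At 24 h they overlapped only through the arp6-10 array that stands apart, at 7.05, and the arp6-10 mean was higher by 0.82 with it and by 1.19 without it. The rise in arp6-10 was 2.41 ± 0.42 (SE), 5.32-fold (limma adjusted p = 0.0117), and 2.78 ± 0.23 without the 2 arrays (adjusted p = 1.4e-06). The change by 24 h was -1.89 ± 0.42 (adjusted p = 0.0517), and -1.51 ± 0.23 without the 2 arrays (adjusted p = 0.000577), so the call of a fall depends on them.

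AT1G19530, also of unknown function, had arp6-10 log2 levels of 4.74, 5.28, 5.61 and 4.91 at 12 °C, 6.72, 7.37, 7.03 and 7.58 after 2 h, and 5.32, 4.47, 4.86 and 5.12 after 24 h. Col-0 had 6.02 and 8.10 at 12 °C, 8.88 and 9.31 after 2 h, and 5.43 and 5.15 after 24 h. At 12 °C and at 2 h every arp6-10 array lay below both Col-0 arrays, while at 24 h they overlapped. The arp6-10 rise was 2.04 ± 0.25 (SE), 4.11-fold (limma adjusted p = 0.00131), and the fall was -2.23 ± 0.25 (adjusted p = 0.000597). With the 2 arrays left out these were 2.20 ± 0.22 (adjusted p = 9.5e-06) and -2.07 ± 0.22 (adjusted p = 3.7e-05). The 2 Col-0 arrays at 12 °C differed by about as much as the Col-0 difference at 2 h, which was 2.03.

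AT4G39675 is a gene of unknown function. In arp6-10 its log2 levels were 5.10, 5.24, 5.77 and 5.26 at 12 °C, 6.67, 7.63, 7.44 and 8.37 after 2 h, and 6.18, 4.79, 5.71 and 7.37 after 24 h. In Col-0 they were 6.64 and 8.08 at 12 °C, 9.21 and 9.89 after 2 h, and 7.54 and 6.55 after 24 h. All arp6-10 arrays lay below both Col-0 arrays at 12 °C and at 2 h. The arp6-10 rise was 2.18 ± 0.45 (SE, limma adjusted p = 0.0273), and the change by 24 h was -1.51 ± 0.45 (adjusted p = 0.142). Without the 2 arrays the rise was 2.32 ± 0.37 (adjusted p = 0.000502) and the change by 24 h was -1.10 (adjusted p = 0.0553).

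AT4G27450 encodes a protein with a glutamine amidotransferase-like domain. Seedlings of arp6-10 had log2 levels of 5.79, 5.93, 7.59 and 5.31 at 12 °C, 8.27, 8.54, 8.31 and 8.56 after 2 h, and 7.69, 5.45, 7.38 and 7.79 after 24 h. In Col-0 AT4G27450 had 6.85 and 8.15 at 12 °C, 9.51 and 9.67 after 2 h, and 7.99 and 8.38 after 24 h. At 2 h and at 24 h all arp6-10 arrays lay below both Col-0 arrays, and at 12 °C all but the array at 7.59, which stands apart, did. The rise in arp6-10 was 2.26 ± 0.51 (SE, limma adjusted p = 0.0365), and 2.74 ± 0.17 without the 2 arrays (adjusted p = 4.96e-08). Its change by 24 h was -1.34 ± 0.51 (adjusted p = 0.238), and -0.80 ± 0.17 without them (adjusted p = 0.00572).

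AT1G33055, of unknown function, completes the group. The arp6-10 arrays gave log2 levels of 4.24, 4.23, 5.33 and 4.50 at 12 °C, 5.77, 6.08, 5.99 and 5.98 after 2 h, and 5.28, 5.25, 4.35 and 5.63 after 24 h. Col-0 had 6.13 and 5.90 at 12 °C, 7.88 and 7.96 after 2 h, and 6.18 and 5.68 after 24 h. At all 3 points every arp6-10 array lay below both Col-0 arrays, so that the arp6-10 level at 2 h was close to the Col-0 level at 12 °C. The arp6-10 rise was 1.38 ± 0.28 (SE, limma adjusted p = 0.0273), and the change by 24 h was -0.82 ± 0.28 (adjusted p = 0.195). They were 1.63 ± 0.26 (adjusted p = 0.000574) and -0.86 ± 0.26 (adjusted p = 0.0366) without the 2 arrays.

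As a group, the 5 low-oxygen genes had median differences between arp6-10 and Col-0 of -1.44 at 12 °C, -1.92 at 2 h and -0.80 at 24 h. Leaving the 2 arrays out gave -1.82 at 12 °C and -0.57 at 24 h. Their median change at 2 h was 2.18 in arp6-10 and 2.09 in Col-0. A longer list of the core low-oxygen response, drawn up after the members were seen, had 17 tested genes. In arp6-10 at 2 h, 7 of the 17 rose and 0 fell, and the median change of the list was 0.11. The risers were the 5 members, AT3G27220 (1.09) and AT3G03270 (1.18), which encodes a universal stress protein. With the 2 arrays left out, 7 of the 17 rose and 2 fell, AT5G66985 and AT5G44730. In that fit 8.65% of all tested probe sets rose and 9.08% fell. Of the 12 genes of the list that are not members, 2 rose in either fit.

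IVD and MCCA act in the breakdown of leucine. IVD (AT3G45300) encodes isovaleryl-CoA dehydrogenase, which passes electrons from leucine breakdown to the respiratory chain. Its arp6-10 log2 levels were 7.59, 7.33, 7.82 and 7.10 at 12 °C, 8.31, 8.71, 8.00 and 8.32 after 2 h, and 7.97, 6.93, 7.72 and 7.77 after 24 h. In Col-0 IVD had 6.44 and 7.94 at 12 °C, 8.97 and 9.14 after 2 h, and 7.29 and 7.23 after 24 h. The arp6-10 2 h arrays lay above all arp6-10 arrays of the other points and below both Col-0 2 h arrays. The arp6-10 change at 2 h was 0.88 ± 0.23 (SE, limma adjusted p = 0.069), and 1.00 ± 0.17 without the 2 arrays (adjusted p = 0.00105). By 24 h it was then -0.52 (adjusted p = 0.0569). The difference at 2 h in Col-0 was 1.87.

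MCCA (AT1G03090) encodes the biotin-carrying subunit of methylcrotonyl-CoA carboxylase, which acts just after IVD. The log2 levels of MCCA in arp6-10 were 7.02, 7.04, 8.16 and 6.54 at 12 °C, 8.70, 9.01, 8.07 and 8.37 after 2 h, and 8.01, 6.46, 8.09 and 7.79 after 24 h. In Col-0 MCCA had 6.62 and 8.26 at 12 °C, 9.26 and 9.15 after 2 h, and 7.55 and 7.55 after 24 h. The arp6-10 2 h arrays overlapped those of 12 °C through the array at 8.16, which stands apart, and those of 24 h through the array at 8.09, and all lay below the Col-0 2 h arrays. The arp6-10 change was 1.35 ± 0.38 (SE, limma adjusted p = 0.0836), and 1.67 ± 0.21 without the 2 arrays (adjusted p = 7.25e-05), where the change by 24 h was -0.58 (adjusted p = 0.0744). GAT1_2.1 (AT1G15040), a glutamine amidotransferase, had arp6-10 means of 5.52 ± 1.09 at 12 °C, 6.93 ± 0.60 at 2 h and 5.63 ± 1.02 at 24 h (SD, n = 4 each). Its groups overlapped, and its change at 2 h was 1.41 ± 0.55 (SE, limma adjusted p = 0.185), and 1.66 without the 2 arrays (adjusted p = 0.019).

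Other genes for the breakdown of branched-chain amino acids were looked at through a list drawn up after the members were seen. It had 9 tested genes, of which 1 rose in arp6-10 at 2 h and 0 fell, with a median change of 0.24. The riser was ETFQO (1.16), which hands the electrons from IVD on to ubiquinone in the respiratory chain. In the fit without the 2 arrays 3 of the 9 rose, namely ETFQO, IVD and MCCA.

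Among the other named members, AT5G01740, of the nuclear transport factor family in sequence, rose in arp6-10. Log2 levels there were 7.54, 7.52, 8.28 and 7.56 at 12 °C, 9.34, 9.70, 8.62 and 9.28 after 2 h, and 8.46, 7.36, 8.49 and 8.56 after 24 h. In Col-0 AT5G01740 had 7.77 and 7.86 at 12 °C, 10.14 and 10.19 after 2 h, and 8.69 and 8.69 after 24 h. The arp6-10 2 h arrays did not overlap those of the other points, and they lay below both Col-0 2 h arrays. The arp6-10 rise was 1.51 ± 0.29 (SE, limma adjusted p = 0.0202), against a Col-0 difference of 2.35. The change by 24 h was -1.02 (adjusted p = 0.127). Without the 2 arrays the rise was 1.70 ± 0.19 (adjusted p = 3.89e-05) and the change by 24 h was -0.73 ± 0.19 (adjusted p = 0.0201).

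AT1G22890, for which no function is given here, had arp6-10 log2 levels of 6.13, 5.67, 7.11 and 5.64 at 12 °C, 6.71, 7.24, 6.54 and 7.33 after 2 h, and 7.47, 5.54, 6.45 and 7.19 after 24 h. Its Col-0 levels were 5.87 and 5.82 at 12 °C, 8.03 and 7.77 after 2 h, and 6.46 and 6.71 after 24 h. The arp6-10 groups overlapped, the 2 h and 12 °C groups only through the array at 7.11, which stands apart. In Col-0 the rule itself excludes an overlap of the 2 h arrays with the other points. The arp6-10 change at 2 h was 0.82 ± 0.40 (SE, limma adjusted p = 0.299), and 1.14 ± 0.25 without the 2 arrays (adjusted p = 0.0053). Its change from there to 24 h was -0.29 ± 0.40 (adjusted p = 0.789), and 0.08 ± 0.25 without the 2 arrays.

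AT1G12010 belongs to the ACC oxidase family, whose enzymes make the hormone ethylene in the last step of its synthesis. Its arp6-10 log2 levels were 5.77, 5.99, 6.07 and 6.22 at 12 °C, 6.40, 6.66, 6.81 and 7.44 after 2 h, and 6.34, 6.53, 6.80 and 7.13 after 24 h. In Col-0 AT1G12010 had 4.57 and 6.52 at 12 °C, 7.12 and 7.76 after 2 h, and 6.29 and 6.51 after 24 h. In arp6-10 every 2 h array lay above every 12 °C array, while the 2 h and 24 h arrays covered nearly the same range. The change at 2 h was 0.81 ± 0.22 (SE, limma adjusted p = 0.0781) and that by 24 h was -0.13 ± 0.22 (adjusted p = 0.844), both of them the smallest among the 36 tested members with all arrays. They were 0.83 ± 0.24 (adjusted p = 0.0259) and -0.07 ± 0.24 (adjusted p = 0.89) without the 2 arrays. AT2G32150, a hydrolase of the haloacid dehalogenase family, and AT3G15770 had arp6-10 changes at 2 h of 1.52 ± 0.60 (SE, limma adjusted p = 0.187) and 1.45 ± 0.38 (adjusted p = 0.0646). These changes were 2.09 (adjusted p = 2.74e-06) and 1.75 (adjusted p = 7.53e-05) without the 2 arrays. For AT2G32150 the change by 24 h was then 0.11 (adjusted p = 0.76), against a Col-0 difference of -1.58.

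**Figure D4:**
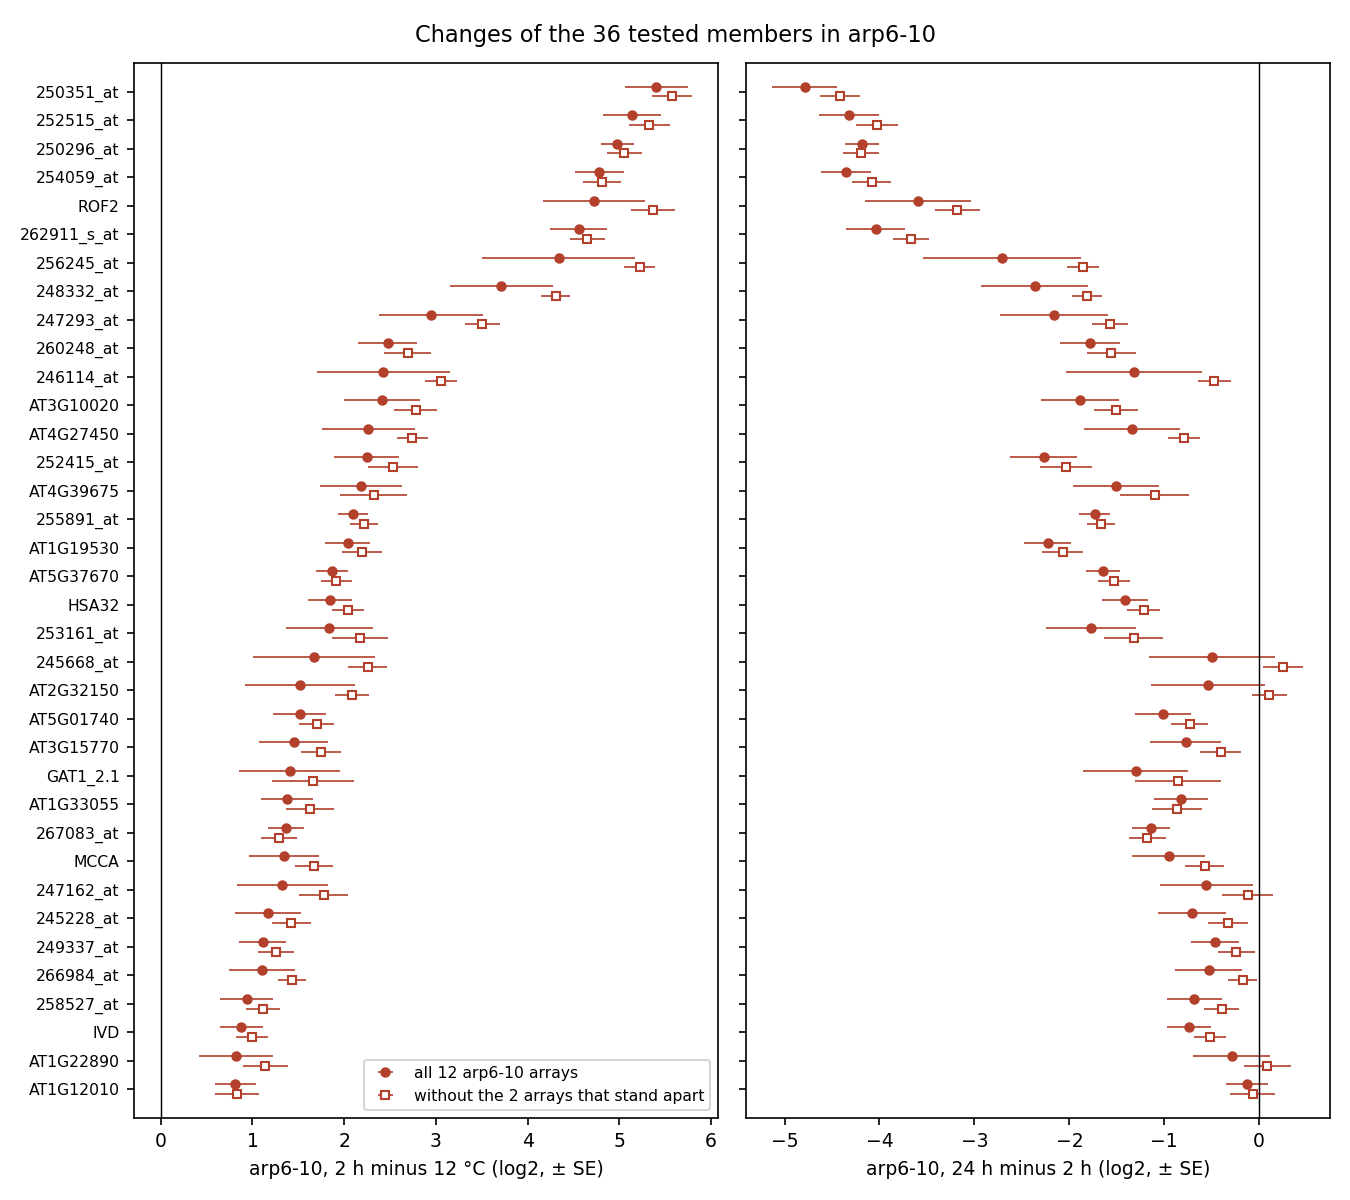
Changes of the 36 tested members in arp6-10 (log2, ± SE), at 2 h against 12 °C (left) and at 24 h against 2 h (right). Filled circles are from all 12 arrays and open squares are without the 2 arrays that stand apart. All 36 members lie right of 0 in the left panel, and in the right panel 36 lie left of 0 with all arrays and 33 without the 2.

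The largest changes in arp6-10 belonged to probe sets with no gene name here. The probe set 250351_at had arp6-10 log2 levels of 4.09, 4.70, 5.19 and 4.75 at 12 °C, 10.27, 10.30, 9.60 and 10.19 after 2 h, and 5.58, 4.18, 5.42 and 6.02 after 24 h. In Col-0 it had 4.70 and 4.09 at 12 °C, 8.66 and 8.08 after 2 h, and 5.27 and 5.06 after 24 h. The genotypes overlapped at 12 °C, and at 24 h only through the array at 4.18, which stands apart. At 2 h every arp6-10 array lay above both Col-0 arrays. Its arp6-10 rise was 5.41 (limma adjusted p = 1.21e-06), against a Col-0 difference of 3.98, and its fall was -4.79 (adjusted p = 7.1e-06). These were 5.57 (adjusted p = 4.88e-10) and -4.42 (adjusted p = 1.78e-08) without the 2 arrays. Of the other unnamed members with every arp6-10 2 h array above both Col-0 arrays, the differences between arp6-10 and Col-0 at 2 h included 1.76 for 252515_at, 1.56 for 250296_at and 2.67 for 254059_at. The arp6-10 arrays of 254059_at already lay above both Col-0 arrays at 12 °C, by 1.04 on the means. The arp6-10 rises of 252515_at, 250296_at and 254059_at were 5.14, 4.98 and 4.78 with all arrays and 5.33, 5.05 and 4.81 without the 2, against Col-0 differences of 3.20, 3.30 and 3.15. The probe set paired with AT1G59860 and AT1G07400, 262911_s_at, rose by 4.56 in arp6-10 (limma adjusted p = 3.29e-06), against a Col-0 difference of 4.48. It fell by 4.04 by 24 h (adjusted p = 1.51e-05). Its changes were 4.65 (adjusted p = 6.49e-10) and -3.67 (adjusted p = 2.92e-08) without the 2 arrays.

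The members also differed in how far they came back. The unnamed 256245_at had the largest Col-0 difference at 2 h, 5.15. Its arp6-10 log2 levels were 7.33, 7.44, 10.71 and 6.77 at 12 °C, 12.21, 12.44, 12.25 and 12.71 after 2 h, and 10.61, 7.15, 10.49 and 10.54 after 24 h. Its Col-0 levels were 6.51 and 6.88 at 12 °C, 12.02 and 11.67 after 2 h, and 10.56 and 10.28 after 24 h. In both genotypes most 24 h arrays stayed far above most 12 °C arrays, and the 2 exceptions in arp6-10 were the arrays that stand apart. The Col-0 difference at 24 h against 12 °C was 3.72, and the arp6-10 change was 1.64 (limma adjusted p = 0.547), or 3.37 without the 2 arrays (adjusted p = 2e-08).

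The unnamed 253161_at went the other way in Col-0. It had arp6-10 log2 levels of 8.13, 8.08, 9.16 and 7.26 at 12 °C, 9.94, 10.76, 9.50 and 9.77 after 2 h, and 9.19, 6.89, 8.05 and 8.77 after 24 h. Col-0 had 7.51 and 10.66 at 12 °C, 10.90 and 11.26 after 2 h, and 6.44 and 6.56 after 24 h. The Col-0 24 h arrays lay below both 12 °C arrays and below all arp6-10 24 h arrays. The difference at 24 h against 12 °C in Col-0 was -2.59, the lowest of the 37, with the 12 °C arrays far from each other. The arp6-10 change at 2 h was 1.84 (limma adjusted p = 0.0629), or 2.17 without the 2 arrays (adjusted p = 0.000221).

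The 9 unnamed members with a Col-0 difference of at least 2.5 and the 11 with a smaller one differed in how arp6-10 stood against Col-0. At 2 h, 6 of the 9 had every arp6-10 array above both Col-0 arrays and 2 had every array below. Of the 11, 0 lay above and 8 lay below. Over all tested probe sets, 21.5% lay above and 21.1% below at this point. The 2 classes were split on the Col-0 difference that the rule used, so these counts are a description.

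Over all 37 members the median difference between arp6-10 and Col-0 was -0.12 at 12 °C, -0.62 at 2 h and -0.14 at 24 h. Over all tested probe sets the medians were -0.05, 0.02 and 0.00. At 2 h, 20 of the 37 members had every arp6-10 array below both Col-0 arrays and 9 had every array above, beside the 21.1% and 21.5% given above. At 12 °C the counts were 4 below and 4 above, where 24.6% and 23.1% of all tested probe sets were below and above. At 24 h they were 6 below and 3 above, where the shares were 12.9% and 10.9%. Without the 2 arrays the median difference of the 37 was -0.28 at 12 °C and 0.23 at 24 h, so the sign at 24 h turned. At 12 °C 16 members then lay below and 4 above, where 30% and 28.2% of all tested probe sets did. At 24 h 6 lay below and 14 above, where 19.5% and 17.8% did. The members were selected for Col-0 levels that were high at 2 h and lower at 12 °C and at 24 h. The differences at all 3 points share these Col-0 arrays, so no test was made. By role, the median difference at 2 h was 0.85 for the chaperones, -1.92 for the low-oxygen genes, -0.67 for IVD, MCCA and GAT1_2.1, and -0.93 for the other named genes. The mean signal of the hybridisation controls was 2813 to 4579 on arp6-10 arrays and 4215 to 6573 on Col-0 arrays, and its part in these differences was not tested.

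A list of heat shock proteins and chaperones had 15 tested genes, among them the 3 members and the 5 loci left out. Of these 15, 9 rose in arp6-10 at 2 h while 0 fell (limma adjusted p under 0.05). The median change of the list was 1.87. Of its 7 genes that were neither members nor left out, 2 rose with all arrays, Hop3 by 3.26 and AT2G20560 by 1.43. Hop3 is a co-chaperone that links HSP70 to HSP90, and AT2G20560 encodes a DnaJ family protein. In Col-0 their returns by 24 h were -0.73 and -0.47, short of the limit of 1. AT2G20560 also missed the limit of 7 for the level, with a Col-0 2 h mean of 6.89. At 24 h against 2 h in arp6-10, 7 of the 15 fell. With the 2 arrays left out, 11 of the 15 rose and 1 fell at 2 h, the faller being AT3G09440, an HSP70 gene, and by 24 h 10 fell and 1 rose.

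Other lists showed few changes in arp6-10 at 2 h with all arrays. Of 4 tested genes for protein folding in the endoplasmic reticulum, 1 rose, the DnaJ protein gene ATERDJ3B (1.14). None of the 7 tested genes of rapid stress and touch response, the 6 of auxin response and warm growth, the 1 clock gene and the 1 oxidative protection gene was called. Leaving out the 2 arrays, 1 rapid stress gene fell and 3 auxin and warm growth genes rose. None of the leaf and root markers was called with all arrays, and LHCB4.2 and JAL34 rose without the 2 arrays. The lists of heat shock factors, of JAZ repressors and of splicing factors had no tested gene with a probe set of its own.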

How the data were processed

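RNA of 18 whole-seedling samples was read on 1 Affymetrix array each. The deposited table gives a linear intensity for each probe set, which the authors obtained from GCOS, per the submitters' processing notes. The sources used here state no version, algorithm or genome build, so no coordinates are printed. Arrays have no read depth, and their number limits the precision.

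From these values, log2(intensity + 16) was quantile normalized over 18 arrays without the 64 control rows. Fold changes on this scale understate the change of dim genes. A filter at the 30th percentile of each probe set's mean level removed the dimmest and kept 15922 for testing. The fit was limma 3.58.1 (R 4.3.3, lmFit and eBayes with a trend, two-sided, Benjamini-Hochberg) on the 12 arp6-10 arrays with 3 group means and 9 residual degrees of freedom. The method was also tried on simulated data, and no result of that trial is given here. The trial is therefore no check on how the arrays that stand apart affect the fit of all 12 arrays. Differences that use Col-0 arrays carry no test, because these arrays chose the members.

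Names came from the platform annotation and RefSeq's TAIR10.1 gene table. Of all probe sets, 13513 have 1 gene there (13436 of these matched RefSeq), 503 have several and 8730 are not listed. All named members are given by role. Values on every array are given for the 12 named members with the largest Col-0 difference, the 5 with the largest and the 5 with the smallest arp6-10 change, and members of a gene list. The unnamed probe sets given with values were chosen after their values were seen. The members and lists were chosen with earlier results of these data known. Promoter motifs were not analysed here. Alternatives were the deposited values without normalization, pseudocounts of 1 and 64, no filter, fits of all 18 arrays or of the compared groups alone, a replicate block, and leaving out arrays.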

Additional observations from a re-analysis of the deposited data

Results flagged for a closer look

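In 51 checks of a named member, or of the members' mean, within an arp6-10 group of 4 arrays, 5 had 1 array far from the other 3, and chance alone marks about 1 in 20. The array arp6-10 12 °C replicate 3 had a log2 level of 8.28 for AT5G01740 (next 7.56) and of 8.66 for AT2G32150 (next 6.46), and a mean over the members of 7.34 (next 6.29). The array arp6-10 24 h replicate 2 had 7.36 for AT5G01740 (next 8.46) and 6.01 for AT2G32150 (next 8.47). These are the 2 arrays that lay far from their groups over all tested probe sets.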

How the results depend on the processing

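The 2 arrays that stand apart moved the counts most. Without them, members called were 36 against 22 with all arrays at 2 h against 12 °C, 21 against 13 at 24 h against 2 h, and 28 against 0 at 24 h against 12 °C. Over all probe sets, 2823, 2418 and 4724 were called without them, against 341, 153 and 0. Leaving out 1 arp6-10 array at a time gave 14 to 33 members higher at 2 h, 10 to 18 lower at 24 h than at 2 h and 0 changed between 24 h and 12 °C. Over all probe sets this gave 85 to 1055, 61 to 627 and 0 to 18, and the rule found 23 to 56 members when 1 Col-0 array was left out. The rule found 41 probe sets on the deposited scale or with a pseudocount of 1 and 25 with a pseudocount of 64. Whether the replicate numbers pair the samples was not settled. Deviations of same-numbered arrays had correlations from -0.40 to 0.56 with a median of -0.05. Those of differently numbered arrays ran from -0.85 to 0.65 with a median of -0.02. The 2 arrays that stand apart were part of these deviations and of the group means behind them, so this cannot exclude pairing. With the replicate number as a block, 20 members rose at 2 h and 13 fell by 24 h, and 225 probe sets in all were called at 2 h. A fit of all 18 arrays called 589 probe sets at 2 h and 291 at 24 h against 2 h, and the values as deposited called 231 at 24 h against 2 h. These other settings gave 20 to 29 members higher at 2 h and 11 to 17 lower by 24 h. Over all probe sets they called 225 to 589 at 2 h and 105 to 291 at 24 h against 2 h. The fit of all 18 arrays takes part of its spread from the Col-0 arrays that chose the members, so its member counts are no test. It sets no end of the member ranges, and it is among the 20 alternatives below. The 2 h calls of ROF2, AT5G37670, HSA32 and AT1G19530 held in all 20 alternatives, while AT3G10020 lost its call in 1, AT5G01740 and AT4G39675 in 6, AT1G33055 in 8 and AT4G27450 in 10. Signs turned only for changes that were not called. At 24 h against 2 h, AT1G12010 was at 0.0083 on the deposited scale and between -0.27 and 0.080 when arrays were left out, the highest without arp6-10 2 h replicate 4. AT1G22890 lay between -0.56 and 0.084 and AT2G32150 between -0.78 and 0.11 when arrays were left out, the highest of both without 24 h replicate 2. At 24 h against 12 °C, AT1G19530 lay between -0.32 and 0.13, the highest without the 2 arrays, and GAT1_2.1 between -0.30 and 0.81. The causes were not tested.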
